A study of Mus musculus with 16 samples.

Results

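Klf2, Klf4 and Klf5, 3 zinc-finger transcription factors of the Kruppel-like family, were followed on all 16 arrays of a study that reprogrammed mouse fibroblasts with a human artificial chromosome (HAC). All probes named for these genes were taken, which gave 5 probes (2 for Klf2, 1 for Klf4 and 2 for Klf5) of the 41174 on the array, and 3 genes of 28482 gene names. Kruppel-like factors bind GC-rich and CACCC-type DNA through a C-terminal set of zinc fingers that differs little between members. In mouse embryonic stem (ES) cells Klf2, Klf4 and Klf5 are known to share many binding sites with the core pluripotency factors and to cover for each other in part in keeping self-renewal. Klf4 is known to be induced there by leukemia inhibitory factor (LIF) through Stat3, Klf2 is known to answer to MEK inhibition, and in fibroblasts Klf4 is known as a factor of growth arrest. Klf4 is also 1 of the classical reprogramming factors, and it was carried by the vectors of this study while Klf2 and Klf5 were not.

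The samples comprised mouse embryonic fibroblasts (MEFs) of C57BL/6 background (1 array), the ES cell lines B6ES (C57BL/6) and TT2 (C57BL/6 x CBA), and 20D17 (C57BL/6 x DBA), an induced pluripotent stem (iPS) line made with retroviral vectors. The other 12 arrays held C57BL/6 iPS lines: 4 iHAC1-iPS clones (1-A3, 1-B, 1-C3, 1-D6), whose HAC carried 2 copies each of Klf4, c-Myc, Sox2 and Oct4, 4 iHAC2-iPS clones (2-N, 2-E, 2-C6, 2-B1), whose HAC added 2 more Oct4 copies and a p53 knockdown cassette, and 4 iHAC-free iPS lines (F-N7, F-E4, F-C5, F-B1), derived from the iHAC2-iPS clones and without the vector. The vectors' cDNAs were driven by the CAG promoter, which is active in most cell types, miR-294 and miR-295 were supplied during derivation, and ES and microcell hybrid lines were grown with LIF on mitomycin-treated MEF feeder layers. Each array was 1 clone or line, so p-values measure the spread between clones, and no clone was measured more than once.

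The arrays were 1-colour Agilent arrays. Between 54.2% and 65.8% of spots per array lay well above background and no spot was saturated. Levels below are log2 signals relative to the array's own 75th percentile, so that 0 is that percentile and 1 unit is a 2-fold difference, and levels of different probes are not on a common scale. The iHAC1-iPS and ES arrays were read with version 10.7.1.1 of the Feature Extraction software, and the iHAC2-iPS and iHAC-free arrays with version 10.7.3.1. These sets shared no slide. Any difference of iHAC2-iPS or iHAC-free from ES or iHAC1-iPS thus cannot be told apart from slide and software version. Of the 8 pluripotency markers tested, 6 were called lower and 1 (Pou5f1, the gene of Oct4) higher in the iHAC1-iPS clones than in ES cells. Of all tested probes, 7.13% were called lower and 7.17% higher in that comparison. The arrays labelled iHAC1-iPS thus lacked much of the marker set: Dppa3, a germline and naive pluripotency gene, was well above background on 1 of their 4 arrays, and Zfp42 and Esrrb each on 2 of them.

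Where a probe sits decides which transcript it can read, so the sequences that bear on this are shown first, each 5′ to 3′. Capitals mark the longest run of G and C in the Klf2 coding probe, and, in the Klf5 coding probe and the forward primer, the bases that both share when set side by side.

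Klf2 coding probe: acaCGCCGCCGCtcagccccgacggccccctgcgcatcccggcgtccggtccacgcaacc

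Klf5 coding probe: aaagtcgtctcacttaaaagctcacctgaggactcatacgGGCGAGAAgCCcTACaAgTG

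Klf4 forward primer: GGCGAGAAaCCtTACcAcTGt

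Klf4 reverse primer: tactgaactctctctcctggca

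Klf4 probe, first 30 bases: aagcgctacaatcatggtcaagttcccagc

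Klf2 3′ probe, first 30 bases: tgtatataagactatgaccgattgtatttc

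The Klf4 gene had a single probe (A_51_P213544), at chr4:55540833-55540892 on the minus strand of mm9, where it starts at base 2160 of the transcript, past the protein-coding part and in the 3′ untranslated region by the known length of that part. The sources used here do not state whether the cloned Klf4 cDNA holds this stretch. It is thus not known whether this probe reads vector Klf4 transcripts at all, and it does not check the vector. Klf4 levels below are those of this probe and not of total Klf4. The primer pair above is the one that the study's primer list marks as reading endogenous Klf4. Its forward primer lies in the zinc-finger coding part, as does the Klf5 coding probe (A_51_P507290), which crosses an exon junction and so spans chr14:99702656-99712388, plus strand. Set side by side, 16 of 20 bases of the Klf4 primer equalled those of the Klf5 probe, while the Klf4 probe itself lies outside the finger part.

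The first Klf2 probe (A_52_P442031, chr8:74843761-74843820, plus strand) lies in the coding part at transcript base 524 and is 78.3% G and C, a share that only 15 of the tested probes reached. The second (A_51_P144264, chr8:74845137-74845196, plus strand) starts at base 1399, in the 3′ untranslated region, and is 43.3% G and C. They are called the coding and the 3′ probe of Klf2 below. The second Klf5 probe (A_52_P54463, chr14:99704137-99704196, plus strand) falls between the 2 ends of the junction probe. That stretch is left out of the spliced transcript that the junction probe reads, and which transcript the second probe reads was not tested. The second probe was dim: it was not well above background on 5 arrays, those of all 4 iHAC1-iPS clones and of 2-C6.

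The RefSeq promoter table (GRCm38.p6) held entries for Klf2 and Klf4, and the 250 bases before each start site are shown because Klf4 and the 3′ probe of Klf2 ran together on the arrays (r = 0.96 over the 16 arrays), whereas the coding probe of Klf2 did not follow Klf4 (r = -0.48). Capitals mark GGGCGG, the GC box, and CACCC, on either strand, both of which are classical contact sequences of Kruppel-like and Sp factors.

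Klf2 promoter: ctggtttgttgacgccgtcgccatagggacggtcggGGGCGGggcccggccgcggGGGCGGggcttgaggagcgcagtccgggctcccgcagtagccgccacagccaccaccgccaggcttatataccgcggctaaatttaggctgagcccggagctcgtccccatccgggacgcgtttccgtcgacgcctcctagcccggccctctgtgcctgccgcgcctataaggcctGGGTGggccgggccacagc

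Klf4 promoter: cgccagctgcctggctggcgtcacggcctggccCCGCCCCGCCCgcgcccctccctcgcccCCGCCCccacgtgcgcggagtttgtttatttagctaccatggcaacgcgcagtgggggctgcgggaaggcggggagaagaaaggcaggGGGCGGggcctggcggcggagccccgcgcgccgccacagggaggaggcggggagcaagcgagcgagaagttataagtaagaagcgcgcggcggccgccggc

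The Klf2 window is chr8:72318812-72319061 on the plus strand and the Klf4 window chr4:55532476-55532725 on the minus strand, both in GRCm38.p6 coordinates, which differ from the mm9 positions of the probes. The Klf2 window held 2 matches to the GC box and 1 to CACCC. The Klf4 window held 4 GC boxes, of which 2 share 1 base in its first capital run, and no match to the other motif.

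Of 32851 promoter windows of the same length, 32.7% held the GC box and 52% held CACCC on either strand. Neither window held the TATA box searched (TATAAA), which 12.4% of all windows held.

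The CCAAT box (33.8% of windows) and TTCNNNGAA, a Stat-type site (7.02% of windows), were absent from both windows as well. The windows were 71.2% (Klf2) and 74.0% (Klf4) G and C, against a median of 52.4% over all windows. A match to these letters is a description and not a binding site.

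The Klf4 probe read low in the clones that still carried a HAC with Klf4 on it, and high in every line without a HAC. By qRT-PCR the paper found transgenic Klf4 above endogenous Klf4 in both kinds of HAC clone. A low reading of this probe therefore need not mean a low total of Klf4 transcripts, and the total was not tested here. Its level was 5.06 in B6ES and 5.81 in TT2, 5.19 in 20D17 and 4.97 in MEFs. In the iHAC1-iPS clones it was 2.21 (1-A3), 2.14 (1-B), 2.19 (1-C3) and 2.97 (1-D6). In the iHAC2-iPS clones it was 4.69 (2-N), 2.18 (2-E), 2.34 (2-C6) and 3.21 (2-B1). All 4 iHAC1-iPS clones and all 4 iHAC2-iPS clones lay below both ES lines, and 2-N was the clone nearest to them. In the iHAC-free lines the Klf4 level was 5.59 (F-N7), 5.46 (F-E4), 5.83 (F-C5) and 6.03 (F-B1), so that these overlapped the ES lines and lay above every clone with a HAC. By group mean, the order was iHAC-free (5.73 ± 0.25, SD, n = 4), ES (5.44 ± 0.52, n = 2), 20D17, MEF, iHAC2-iPS (3.11 ± 1.15, n = 4) and iHAC1-iPS (2.38 ± 0.39, n = 4). Among these neighbours the iHAC-free and ES lines overlapped, as did the iHAC2-iPS and iHAC1-iPS clones, and 20D17 lay between the ES lines. The MEF array, a single one, differed from the ES mean by -0.47 and lay above all clones with a HAC.

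Klf2, the relative of Klf4 best known from T cells and blood vessel lining, gave a like split on its 3′ probe, except that MEFs were lower than the ES lines. The 3′ probe read 5.53 in B6ES, 6.16 in TT2, 5.46 in 20D17 and 3.22 in MEFs. In the iHAC1-iPS clones it read 1.12 (1-A3), 1.09 (1-B), 1.06 (1-C3) and 1.77 (1-D6), and in the iHAC2-iPS clones 3.81 (2-N), 0.47 (2-E), 1.96 (2-C6) and 2.08 (2-B1). The clones with a HAC lay below both ES lines, 2-N nearest again, while MEFs lay between 2-N and 2-B1. In the iHAC-free lines it read 5.25 (F-N7), 5.22 (F-E4), 5.33 (F-C5) and 5.83 (F-B1), so that F-B1 lay between the ES lines and the others just below them. By group mean, the order was ES (5.85 ± 0.45, SD, n = 2), 20D17, iHAC-free (5.41 ± 0.29, n = 4), MEF, iHAC2-iPS (2.08 ± 1.37, n = 4) and iHAC1-iPS (1.26 ± 0.34, n = 4). Over the 16 arrays the range was 5.69 log2 units, or 51.8-fold, wider than that of 95% of the tested probes.

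The coding probe of Klf2 did not follow this pattern. It was bright on every array (percentile 99.48 of the mean levels of the tested probes) and read 6.15 in MEFs, 7.37 in B6ES, 6.91 in TT2 and 7.47 in 20D17. The clones with a HAC read between 6.89 (2-C6) and 7.64 (1-D6), and the iHAC-free lines between 6.85 (F-B1) and 7.06 (F-N7). The whole range was 1.49 log2 units, and the iHAC1-iPS clones lay above all iHAC-free lines, opposite to the 3′ probe. Over the 16 arrays the levels of both probes correlated at r = -0.34 (Pearson, a description over arrays that share groups and slides). The 15 tested probes with at least as many G and C as the coding probe, itself included, had a median level of 3.76, against -1.92 over all tested probes. Their median range was 2.01, against 2.08. Because the gene's brightest probe is the one that stands under its name here, both are given throughout, and which of them reads the Klf2 transcript faithfully was not tested.

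Klf5, which is known for early embryo and gut epithelium, was near an even level on its coding probe in all samples without a HAC other than MEFs. That probe read 2.87 in B6ES, 3.03 in TT2, 2.85 in 20D17 and 0.46 in MEFs. In the iHAC1-iPS clones it read -1.20 (1-A3), -0.62 (1-B), -0.05 (1-C3) and -1.43 (1-D6), all below MEFs. In the iHAC2-iPS clones it read 3.19 (2-N), 1.29 (2-E), 0.66 (2-C6) and 1.73 (2-B1). Klf5 thus differed from Klf4 and Klf2 in that the iHAC2-iPS clones stood above all iHAC1-iPS clones and above MEFs, and 2-N reached the ES lines. The iHAC-free lines read 3.05 (F-N7), 2.93 (F-E4), 3.07 (F-C5) and 3.04 (F-B1), an SD of 0.07. The dim second probe of Klf5 followed the coding probe at r = 0.95 over the 16 arrays, from -7.91 in 1-D6 to -2.66 in 2-N. In 20D17, however, the second probe read -5.22, which was 2.66-fold below the ES mean (-3.80) and 3.67-fold below the iHAC-free mean (-3.34).

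**Figure D1:**
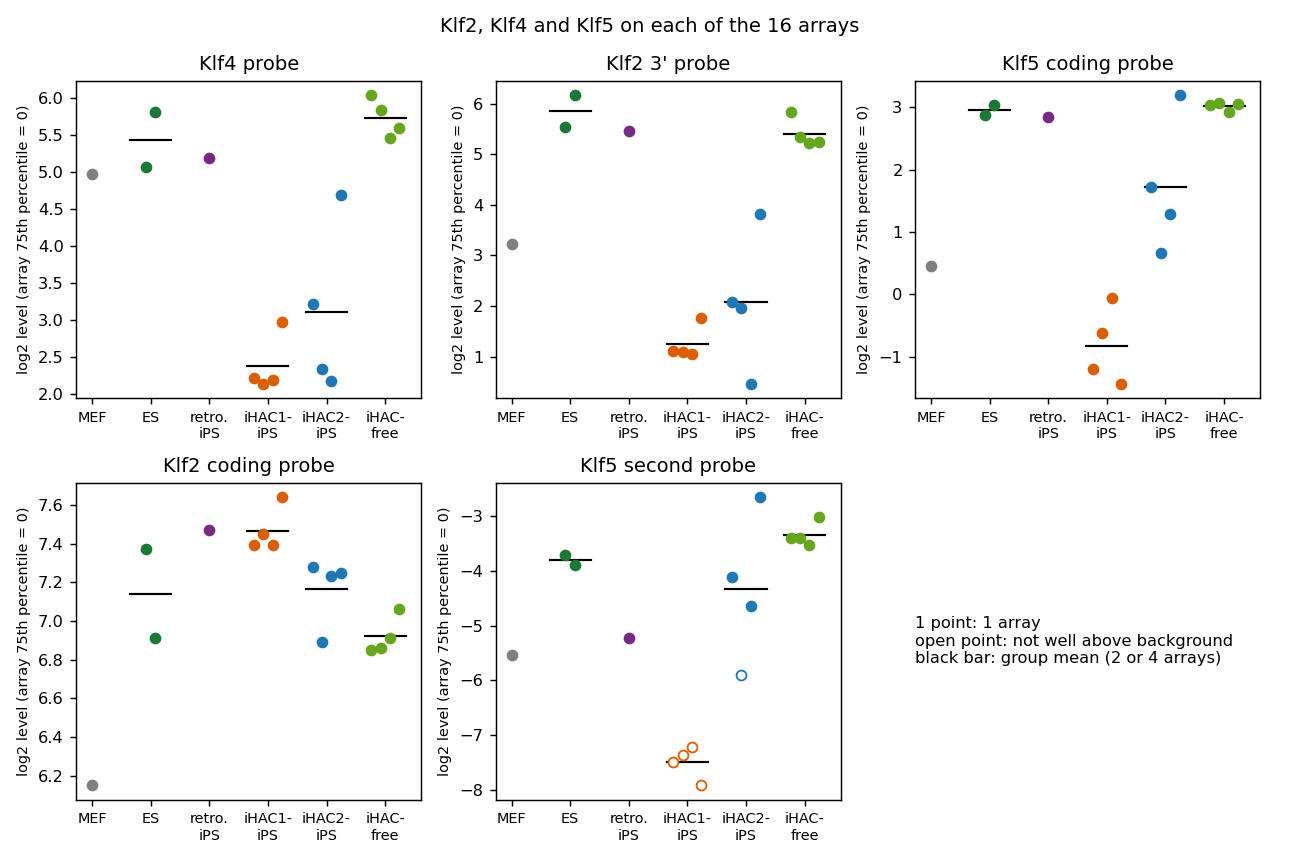
Level of each probe of Klf2, Klf4 and Klf5 on the 16 arrays; the vertical axis of each panel is the log2 signal relative to the array's 75th percentile, the horizontal axis the group, each point 1 array (open: not well above background), and black bars are the means of groups with 2 or 4 arrays. The iHAC1-iPS clones are lowest on the Klf4 probe (mean 2.38), the Klf2 3′ probe (1.26, with the single lowest array in iHAC2-iPS at 0.47) and both Klf5 probes, while the Klf2 coding probe spans only 1.49 units.

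The first question was whether clones with the iHAC1 vector differed from ES cells. Klf4 was 8.33-fold lower in the iHAC1-iPS clones (log2 difference -3.06, SE 0.56, adjusted p = 0.00313 by limma over 31423 probes). The Klf2 3′ probe was 24-fold lower (-4.59, SE 0.64, adjusted p = 0.000685 by limma). The Klf5 coding probe was 13.7-fold lower (-3.78, SE 0.55, adjusted p = 0.000893 by limma). Thus the probes of Klf4, which the vector carries, and of Klf5, which it does not carry, both read lower, as did 1 of the 2 Klf2 probes. Since the Klf4 probe may not read vector transcripts, these values do not show what the vector adds to Klf4. The second Klf5 probe was not well above background in iHAC1-iPS and was at least 4.73-fold lower there (adjusted p = 0.00185 by limma). A bound of this kind sets the ES mean against the lowest well-measured signal of each dim array. With normexp background correction the difference of this probe was -0.63 (adjusted p = 0.0957 by limma), smaller than the bound and not called. The Klf2 coding probe was 0.33 higher (SE 0.17, adjusted p = 0.191 by limma), which left a gap of 4.92 log2 units between both Klf2 probes. Of 7032 genes with 2 or more tested probes, 15 (0.213%), Klf2 itself included, had a gap at least as large. In this comparison 4 of the 5 probes were called lower, that is with adjusted p under 0.05 and at least a 2-fold difference, beside 7.13% of all tested probes called lower and 7.17% called higher. On the slide that held both ES lines and 1-D6, 1-D6 differed from ES by -2.47 for Klf4, -4.07 for the Klf2 3′ probe and -4.38 for the Klf5 coding probe. All 4 calls held when any 1 array was left out.

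The clones with the iHAC2 vector, in which Oct4 copies and the p53 knockdown were added, showed a part of this pattern. Klf4 was 5.02-fold lower than in ES cells (-2.33, SE 0.56, adjusted p = 0.0252 by limma) and the Klf2 3′ probe 13.6-fold lower (-3.77, SE 0.64, adjusted p = 0.00733 by limma). The Klf5 coding probe did not pass (-1.23, 95% interval -2.43 to -0.04, adjusted p = 0.149), nor did the Klf2 coding probe (0.02, adjusted p = 0.937) or the second Klf5 probe (-0.53, adjusted p = 0.583). Here 2 of the 5 probes were called lower, beside 3.28% of all tested probes called lower and 3.52% called higher. The calls rested on few arrays. Without TT2 the adjusted p of Klf4 was 0.169 and that of the Klf2 3′ probe 0.0701, without B6ES that of Klf4 was 0.0909, and with no other group in the fit they were 0.154 and 0.138. Without 2-N, the clone nearest to ES cells, Klf5 was called (-1.73, adjusted p = 0.0177).

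The iHAC-free lines were compared with ES cells to see whether any difference was left once the vector was gone. Of the 5 probes, limma called 0, with 0 at an unadjusted p under 0.05, beside 0.188% of all tested probes called higher and 0.175% called lower. Klf4 differed by 0.29 (95% interval -0.93 to 1.51), the Klf2 3′ probe by -0.44 (-1.83 to 0.95) and the Klf5 coding probe by 0.07 (-1.12 to 1.26). The dim second Klf5 probe differed by 0.46 (-0.87 to 1.79), with all iHAC-free lines (-3.53 to -3.03) above both ES lines (-3.90 and -3.71). The Klf2 coding probe differed by -0.22 (-0.59 to 0.15). These intervals still allow differences of over 2-fold for all probes but the last, so they do not show that the lines were alike. Only 2 ES lines of different background stood on the other side of the comparison.

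The iHAC2-iPS clones and the lines derived from them gave the closest comparison, since each iHAC-free line came from 1 of the iHAC2-iPS clones and both groups shared slides. They were not the same cells, as the iHAC-free lines were subclones selected for lack of the HAC's EGFP. Loss of the vector cannot be told apart from this selection and subcloning. In line B the Klf4 level went from 3.21 to 6.03, in line C from 2.34 to 5.83, in line E from 2.18 to 5.46 and in line N from 4.69 to 5.59. Klf4 was thus higher without the vector in 4 of 4 lines, by 7.02-, 11.2-, 9.71- and 1.87-fold in that order. The Klf2 3′ probe was also higher in 4 of 4 lines, by 13.5-, 10.3-, 27- and 2.71-fold. Klf5 was 2.48-, 5.34- and 3.10-fold higher in lines B, C and E and was at 0.906 times the level of 2-N in line N. The Klf2 coding probe was lower in 4 of 4 lines, at 0.739 to 0.977 times the level of the clone of origin. Line N therefore stood apart from the other lines on the first 3 probes, through the level of 2-N and not through that of F-N7.

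Over groups, Klf4 was 6.14-fold lower in iHAC2-iPS than in iHAC-free lines (-2.62, SE 0.46, adjusted p = 0.0236 by limma) and the Klf2 3′ probe 10.1-fold lower (-3.33, SE 0.52, adjusted p = 0.0169 by limma). Klf5 missed the threshold (-1.30, SE 0.45, adjusted p = 0.17). So 2 of the 5 probes were called lower, beside 0.601% of all tested probes called lower and 0.213% called higher. Within slide 3 (lines B and N) the differences were -1.86 for Klf4 and -2.60 for the Klf2 3′ probe, and within slide 4 (lines C and E) -3.38 and -4.06. Leaving out any 1 iHAC-free line ended both calls (adjusted p from 0.0673 to 0.0755 for Klf4 and from 0.051 to 0.0593 for the Klf2 3′ probe), as did leaving out 2-E for Klf4 (0.0641). Without 2-N, Klf4 was at -3.15 (adjusted p = 0.000359) and Klf5 was called (-1.80, adjusted p = 0.0106).

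**Figure D2:**
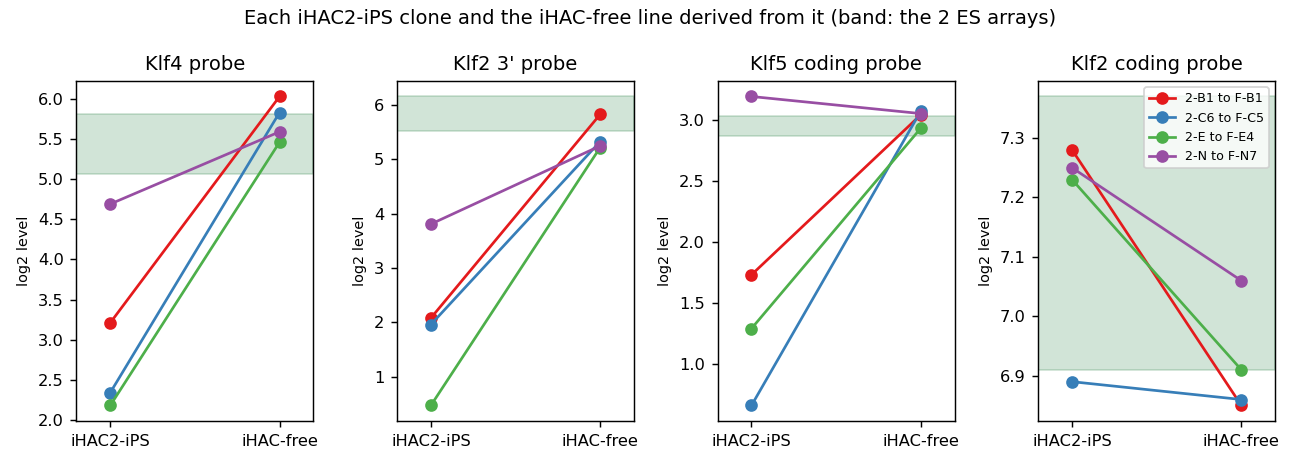
Level of 4 probes in each iHAC2-iPS clone (left of each panel) and in the iHAC-free line derived from it (right); the vertical axis is the log2 level, each line joins 1 pair, and the green band spans both ES lines. Klf4 and the Klf2 3′ probe rise in all 4 lines and line N starts highest (Klf4 4.69), whereas the axis of the Klf2 coding probe spans under 1 unit and its lines slope down.

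Between both kinds of vector, Klf5 was the member that passed the test. It was 5.82-fold lower in iHAC1-iPS than in iHAC2-iPS clones on the coding probe (-2.54, SE 0.45, adjusted p = 0.00142 by limma) and at least 3.29-fold lower on the second probe (adjusted p = 0.000771 by limma), whose difference with normexp was -0.60 (adjusted p = 0.0389 by limma) and under the 2-fold limit. Klf4 differed by -0.73 (95% interval -1.72 to 0.27, adjusted p = 0.225) and the Klf2 3′ probe by -0.82 (-1.95 to 0.32, adjusted p = 0.232). Here 2 of the 5 probes were called lower, beside 11.0% of all tested probes called lower and 8.98% called higher. Vector, clone set, slide and software version cannot be told apart in this comparison, as no slide held both kinds of clone. Without 2-E the Klf2 3′ probe was called as well (-1.36, adjusted p = 0.0267).

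Against the iHAC-free lines the iHAC1-iPS clones gave the largest falls in Klf4 and Klf5 of the 6 comparisons: 10.2-fold for Klf4 (-3.35, SE 0.46, adjusted p = 0.00026), 17.7-fold for the Klf2 3′ probe (-4.15, SE 0.52, adjusted p = 0.000159) and 14.4-fold for Klf5 (-3.85, SE 0.45, adjusted p = 0.000102, all by limma). The second Klf5 probe was at least 6.52-fold lower, and with normexp its difference was -0.70, under the 2-fold limit. The Klf2 coding probe was 1.47-fold higher (0.55, SE 0.14, adjusted p = 0.00875 by limma), under the 2-fold limit. So 4 of the 5 probes were called lower, beside 11.1% of all tested probes called lower and 8.99% called higher. The 6 comparisons share groups and so are not independent of each other.

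To set Klf4 beside the relatives that the vector lacks, its log2 level minus the mean log2 level of Klf2 and Klf5 was taken on each array and compared between groups with an exact two-sided permutation test. Because probes differ in brightness, the value on a single array has no zero of its own and is read only against other arrays. Nor does it measure what the vector adds, as it is not known whether the Klf4 probe reads vector transcripts. With the Klf2 coding probe, this value was -0.06 in B6ES and 0.83 in TT2, from -1.48 (1-C3) to -0.14 (1-D6) in the iHAC1-iPS clones, from -2.08 (2-E) to -0.53 (2-N) in the iHAC2-iPS clones, and from 0.53 (F-N7) to 1.08 (F-B1) in the iHAC-free lines. The value was thus lower in every clone with a HAC than in any iHAC-free line. The difference was -1.70 between iHAC1-iPS and iHAC-free and -2.09 between iHAC2-iPS and iHAC-free, each with p = 0.0286 (exact permutation test), the smallest p that 4 against 4 arrays allow, and 0.0857 after adjustment over the 6 comparisons. With 4 against 2 arrays no p under 0.133 is possible, so the differences from ES cells (-1.34 and -1.72) could not pass.

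The choice of the Klf2 probe turned this result. With the 3′ probe of Klf2 in place of the coding probe, the value in iHAC1-iPS clones was above that in iHAC-free lines by 0.65 and above that in ES cells by 1.12, and in iHAC2-iPS clones it was -0.30 from the iHAC-free lines. Set against Klf5 alone, Klf4 differed by 0.72 (iHAC1-iPS minus ES), 0.50 (iHAC1-iPS minus iHAC-free) and -1.32 (iHAC2-iPS minus iHAC-free). Set against the Klf2 3′ probe alone, it differed by 1.53, 0.80 and 0.71 in the same order. The point estimate of the fall was therefore smaller for Klf4 than for the Klf2 3′ probe in each of these comparisons. Set against Klf5, Klf4 differed by 1.81 between iHAC1-iPS and iHAC2-iPS (p = 0.0286 by the exact permutation test, 0.0857 after adjustment), and none of these values passed adjustment over the 6 comparisons.

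The other 14 Klf genes were all tested. In iHAC1-iPS against ES, 2 of the 14 were called lower: Klf9, a basic transcription element binding factor (-1.90, 3.73-fold, adjusted p = 0.00175), and Klf3, a CtBP-recruiting repressor (-1.29, 2.44-fold, adjusted p = 0.0392, both by limma). The median difference over the 14 was -0.58, beside 0.04 over all tested probes. Of all tested probes 7.13% were called lower there and 7.17% higher, so 2 calls among 14 do not set these genes apart. In iHAC2-iPS against ES limma called 0 of the 14 (3 at an unadjusted p under 0.05, median -0.10, beside 0.06 over all tested probes). In iHAC-free against ES it called 0 of the 14 as well (4 at an unadjusted p under 0.05, median 0.18, beside 0.03). Over all tested probes 3.28% were called lower and 3.52% higher in the iHAC2-iPS comparison, and 0.175% and 0.188% in the iHAC-free comparison. Between iHAC1-iPS and iHAC2-iPS, 3 of the 14 were called lower, Klf3 (-2.12), Klf9 (-1.28) and Klf15 (-2.95), and 1 higher, Klf12 (1.47), beside 11.0% of all tested probes called lower and 8.98% called higher. Klf3 and Klf15 thus had lower point estimates there than Klf4 (-0.73) and the Klf2 3′ probe (-0.82). Of the related Sp factors 8 of 9 had a probe, and Sp6 was called lower in iHAC1-iPS against ES (-1.74, adjusted p = 0.0134 by limma). In iHAC1-iPS against ES the point estimates of Klf2 (3′ probe), Klf4 and Klf5 were below that of every other Klf gene, the lowest of which was Klf15 (-2.27, not called), and differences between genes were not tested.

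**Figure D3:**
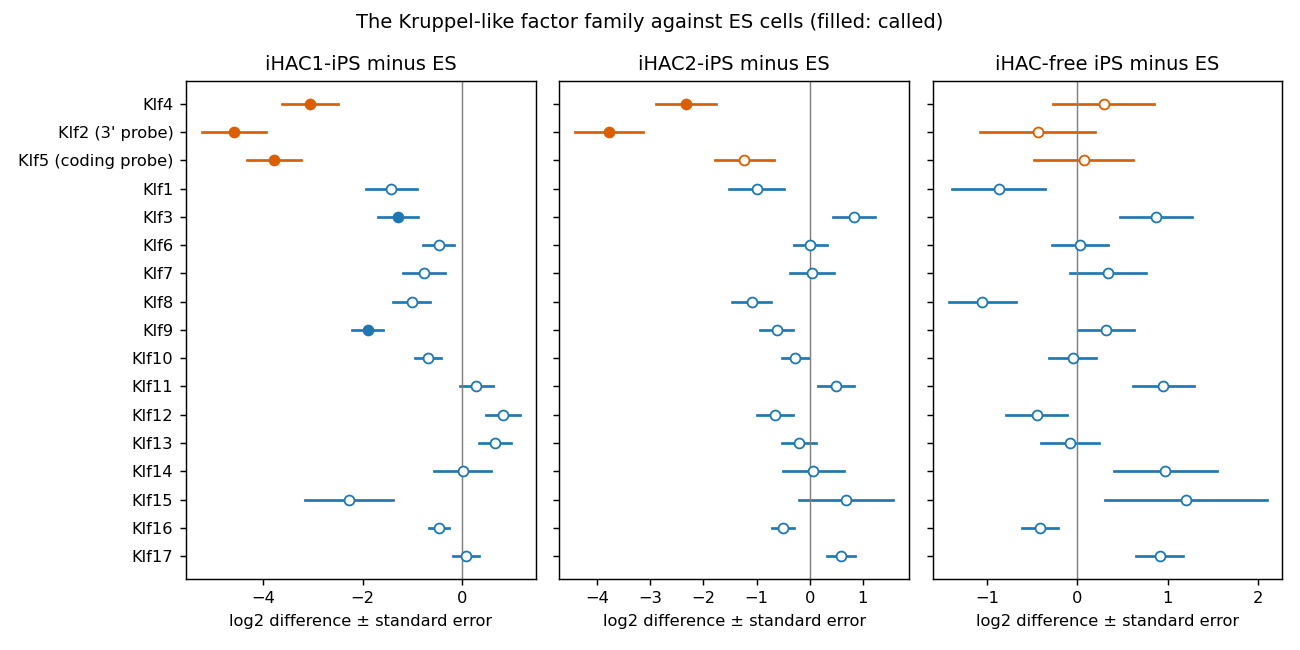
Difference from ES cells of Klf4, Klf2 (3′ probe), Klf5 (coding probe) and the other 14 Klf genes; the horizontal axis is the log2 difference with its standard error, on a scale of its own in each panel, and filled points were called. In iHAC1-iPS, Klf4, Klf2 and Klf5 lie at -3.06, -4.59 and -3.78 while Klf9 and Klf3, the other called members, lie at -1.90 and -1.29, and in iHAC-free lines no point is filled.

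The other 3 cDNAs on the vectors were read in the same arrays. Against ES cells, Myc was 26.6-fold higher in iHAC1-iPS (4.73, adjusted p = 0.000106) and Pou5f1 6.95-fold higher (2.80, adjusted p = 0.00244), whereas Sox2 was 5.50-fold lower (-2.46, adjusted p = 0.0146, all by limma). In iHAC2-iPS against the iHAC-free lines, Myc (17.7-fold) and Pou5f1 (5.10-fold) were higher. Klf4 and Sox2 thus went the other way from Myc and Pou5f1 in iHAC1-iPS. Whether the probe of each gene lies in the part that was cloned was not tested.

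Of the genes that feed the LIF and Stat3 pathway, which is known to induce Klf4, 1 of 6 was called in iHAC1-iPS against ES: Jak2, a receptor-bound kinase, was 2.23-fold higher (1.16, adjusted p = 0.0488 by limma). The list median was 0.15, beside 0.04 over all tested probes, of which 7.17% were called higher and 7.13% lower. A single call thus does not set this list apart. In iHAC2-iPS against ES limma called 0 of the 6 (1 at an unadjusted p under 0.05). Of all tested probes 3.28% were called lower there and 3.52% higher. Klf2 and Klf4 are also known as genes of the immediate early stress response, along with Fos, Jun and Egr1. Of the 11 immediate-early genes tested, 2 were called lower in iHAC1-iPS against ES, Dusp1 (-1.35, adjusted p = 0.0033) and Ier2 (-1.19, adjusted p = 0.0111, both by limma), with a list median of -0.09. Beside the 7.13% of all tested probes called lower in iHAC1-iPS against ES, 2 calls among 11 do not set this list apart either. Ier2 was also lower in iHAC2-iPS against ES (-1.15, adjusted p = 0.0257 by limma).

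The genes of the naive pluripotency network, among which Klf2, Klf4 and Klf5 are usually counted, fell with them in the iHAC1-iPS clones. Of the 12 genes listed, 10 had a probe under their name, and 7 of these were called lower against ES, beside 7.13% of all tested probes. Their median was -3.12, beside 0.04 over all tested probes. The 7 called genes included Tfcp2l1, a factor downstream of LIF (-6.03, adjusted p = 0.000319), Mycn (-4.79, adjusted p = 0.00247) and Tcl1, an Akt cofactor (-3.83, adjusted p = 0.0076, all by limma). Zfp42 (-8.74) and Esrrb (-8.61) fell furthest, each well above background on 2 of the 4 iHAC1-iPS arrays. In iHAC2-iPS against ES 1 of the 10 was called lower, beside 3.28% of all tested probes. It was Zfp42 (-3.08, 8.45-fold, adjusted p = 0.043 by limma), and the list median was -1.17. In iHAC-free against ES limma called 0 of the 10 (0 at an unadjusted p under 0.05). Over all tested probes 0.175% were called lower there and 0.188% higher. The mean log2 level over the 10 genes was 3.14 and 3.46 in the ES lines and from -2.12 (1-A3) to 0.04 (1-C3) in the iHAC1-iPS clones. It was 1.67, 1.97 and 1.09 in 2-B1, 2-C6 and 2-E but 3.02 in 2-N, and from 2.97 to 3.27 in the iHAC-free lines. The clone 2-N was thus near the ES lines for this list too, as it was for Klf5.

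Epithelial genes, of which Cdh1 (E-cadherin) is a known target of Klf4, differed between the kinds of vector: 9 of 9 were called lower in iHAC1-iPS against iHAC2-iPS (median -4.21). Over all tested probes 11.0% were called lower there and the median was -0.03. In iHAC1-iPS against ES 8 of 9 were called lower (median -4.34), beside 7.13% of all tested probes. Among the 8 were Cldn7, a tight junction claudin (-5.21, adjusted p = 0.00101), Epcam (-3.74, adjusted p = 0.0102) and Cdh1 (-5.78, adjusted p = 0.0415, all by limma). In iHAC2-iPS against ES limma called 0 of the 9 (1 at an unadjusted p under 0.05, median 0.19). Of all tested probes 3.28% were called lower there and 3.52% higher, so 0 of 9 does not set these genes apart. The mean log2 level over the 9 genes was 2.65 and 2.03 in the ES lines and from 2.25 to 3.14 in the iHAC2-iPS clones. In the iHAC1-iPS clones it was -4.75 (1-A3), -0.11 (1-B), -0.18 (1-C3) and -3.03 (1-D6). The clones 1-A3 and 1-D6, lowest on this list, were also lowest on the Klf5 coding probe (-1.20 and -1.43), while 1-D6 was the highest iHAC1-iPS clone for Klf4 (2.97).

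**Figure D4:**
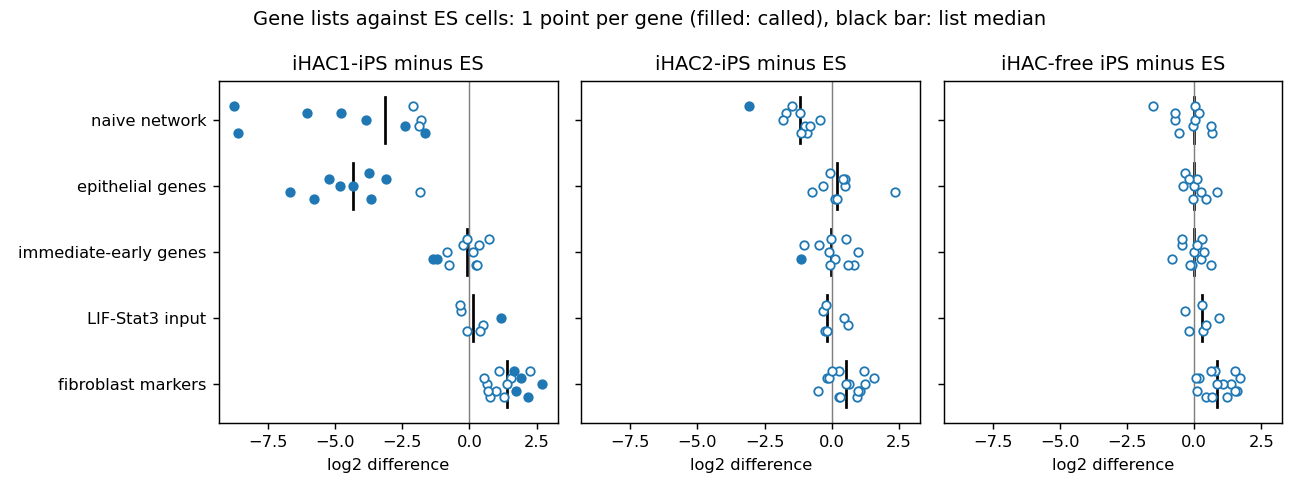
Differences from ES cells of the genes of 5 lists; the horizontal axis is the log2 difference, each point 1 gene (filled: called) and each black bar the list median. In iHAC1-iPS the naive network and the epithelial genes lie far to the left (medians -3.12 and -4.34), while the immediate-early genes and the LIF-Stat3 genes straddle 0.

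Of the cell cycle genes known as Klf4 targets, Cdkn1a (p21), which Klf4 can induce, was 3.03-fold higher in iHAC1-iPS clones than ES lines (1.60, adjusted p = 0.00175 by limma). Trp53 (p53), which Klf4 can repress, was 2.03-fold lower in iHAC1-iPS (-1.02, adjusted p = 0.0293) and 2.25-fold lower in iHAC2-iPS, whose vector holds the p53 knockdown (-1.17, adjusted p = 0.0294, both by limma). Ccnd1, the third gene of the list, was not called in either. By qRT-PCR the paper found anti-proliferative genes, p53 and Cip1 (p21) among them, near ES levels and not raised in both kinds of clone. The array value of Cdkn1a in iHAC1-iPS was unlike that. Trp53 was not raised on the arrays either, though it was called lower than in the ES lines. The qRT-PCR levels were relative to Nat1 and to B6ES alone, unlike the array levels, and the cause was not tested. Of the genes that Klf2 is known to control in T cells and endothelium, 3 were tested, and limma called 0 of them in iHAC1-iPS against ES (0 at an unadjusted p under 0.05). Over all tested probes 7.13% were called lower there and 7.17% higher. Against the iHAC-free lines 1 of the 3 was called lower in iHAC1-iPS, beside 11.1% of all tested probes. With 3 genes, neither count sets the list apart.

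Fibroblast markers were followed because feeder cells, and cells not reprogrammed, could add to the RNA. In iHAC1-iPS against ES 5 of 15 were called higher, beside 7.17% of all tested probes. Col3a1 was among the 5 (2.71, adjusted p = 0.017 by limma), and the list median was 1.41. The mean log2 level over the 15 markers was 3.69 in MEFs, 0.49 and 1.78 in the ES lines, 2.16 to 3.04 in iHAC1-iPS, 0.86 to 2.66 in iHAC2-iPS and 1.73 to 2.48 in iHAC-free lines. The part of fibroblast RNA in the Klf values was not tested. The MEF array itself had more Klf4 (4.97) and more Klf2 on the 3′ probe (3.22) than any iHAC1-iPS clone, and more Klf5 (0.46) too. Of the primitive endoderm markers 1 of 6 and of the trophectoderm markers 3 of 6 were called lower in iHAC1-iPS against ES, beside 7.13% of all tested probes. In bulk RNA, fewer cells of a type and less RNA per cell cannot be told apart.

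The genes whose levels ran most like those of each member over the 16 arrays were ranked among 21473 genes by Pearson's r, as a description. Nearest to the Klf2 3′ probe was Klf4 itself (r = 0.965), and Aard (0.949), Kat6b (0.948) and Spag6l (0.945) were also among its nearest 5. Nearest to Klf4, apart from Klf2, whose coding probe stands for the gene in this ranking, were Spag6l (0.939), Kat6b (0.93), Lrrc8d (0.928), Gm13238 (0.922) and Tfpi (0.922). Klf5 had other neighbours: 2610036A22Rik (0.984), Zfp982 (0.982), Ooep (0.979), Acap1 (0.979) and Rbm47 (0.972). Kat6b and Spag6l stood among the nearest 5 of both Klf2 (3′ probe) and Klf4, and none of the 5 of Klf5 did so. The arrays share groups and slides, so these values carry no p.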

How the data were processed

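Total RNA of 16 samples was labelled with Cy3 and hybridized by the authors to 1-colour Agilent arrays, 4 per slide. The arrays were read with 2 versions of Feature Extraction, each used for slides of its own. The deposited scanner files give spot intensity on a linear scale, with the background subtracted by Feature Extraction, and place probes on mm9. The authors normalized the data in GeneSpring GX, and their deposited value table holds log2 values, which on every one of its 41174 probes were centred on the median over the arrays. Its columns followed the scanner values with slopes of 1.00006 to 1.00013, so scale, centring and direction are known, and column medians ran from -0.325 to 0.279.

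From the scanner files, control spots and outlier spots were left out, spots of a probe were averaged, and log2 of the processed signal was taken minus the array's 75th percentile. Probes well above background on at least 1 array (31423) were fitted with limma 3.58.1 in R 4.3.3, with all 6 groups in the model. P-values were adjusted by Benjamini-Hochberg over all of them, and a probe was called at adjusted p under 0.05 and at least 2-fold. Where a gene had several probes, the one with the highest mean stood for it, and all probes of Klf2, Klf4 and Klf5 are given. The relative value of Klf4 was tested with an exact permutation test. The fit was tested on simulated data. The precision is limited by the number of arrays, 2 for ES cells and 4 for each kind of HAC line.

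Groups came from the labels. The iHAC2-iPS and iHAC-free lines pair by clone of origin, from the clone letters. Deviations from the group means correlated at -0.219 to 0.08 within a line and at -0.105 to 0.216 between lines. Alternatives were the background correction, the normalization, the deposited value table, filters on dim probes, the groups in the fit, the slide and the line as blocks, and each array left out. The other probe of Klf2 and of Klf5 was added as an alternative after seeing the data. Named genes were Klf2, Klf4 and Klf5, called genes of listed sets, and the 5 genes most like each member. Some of these genes are not reported here. The members and lists were chosen with earlier results of these data known. Promoters are from RefSeq (GRCm38.p6).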

Additional observations from a re-analysis of the deposited data

Results flagged for a closer look

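Of the 18 sets of 4 arrays checked (5 probes and the relative Klf4 value in 3 groups), 3 held an array that stood apart from the other 3 by Dixon's ratio, where chance gives 0.9. In the iHAC1-iPS clones, 1-D6 was highest on the Klf2 3′ probe, at 1.77 with the nearest clone at 1.12, and highest for Klf4, at 2.97 with the nearest at 2.21. This clone lay on the slide of the ES lines and the other 3 iHAC1-iPS clones on another slide, and the part of the slide was not tested. On the Klf5 coding probe it was the lowest of the 4. In the iHAC2-iPS clones, 2-C6 was lowest on the Klf2 coding probe, at 6.89 with the nearest clone at 7.23.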

How the results depend on the processing

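Over 36 results and 504 alternatives, 466 kept direction and side of the threshold, 19 lost and 4 gained a call, and 15 changed sign. When the fit held no other group than those compared, the calls in iHAC2-iPS were lost for Klf4 (-2.33 against ES, -2.62 against iHAC-free) and the Klf2 3′ probe (-3.77 and -3.33), with 19 and 104 probes called in all against 2138 and 256. The other Klf2 probe, an alternative chosen after seeing the data, reversed the gene's sign in 5 comparisons (-4.59, -3.77, -3.33, -0.82 and -4.15) and that of the relative Klf4 value in 3 (1.12, 0.17 and 0.65). The causes were not tested.

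With each array left out, ranges were, for iHAC2-iPS minus ES, -0.20 to 0.25 (Klf2 coding probe), -4.35 to -3.23 (Klf2 3′ probe), -2.86 to -1.96 (Klf4) and -1.73 to -0.88 (Klf5). For iHAC-free minus ES they were -0.45 to 0.01 (Klf2 coding probe), -0.08 to 0.66 (Klf4), -0.01 to 0.15 (Klf5) and -0.08 to 0.81 (relative Klf4). For iHAC2-iPS minus iHAC-free they were -3.91 to -2.79 (Klf2 3′ probe), -3.15 to -2.31 (Klf4) and -1.80 to -0.95 (Klf5), and for iHAC1-iPS minus iHAC2-iPS -1.36 to -0.24 (Klf2 3′ probe) and -1.04 to -0.20 (Klf4, nearest 0 without 2-N). The second Klf5 probe ran from -1.08 (without 2-N) to 0 (without 2-C6) in iHAC2-iPS minus ES and from -1.55 to -0.46 in iHAC2-iPS minus iHAC-free, where it was called without 2-N (adjusted p = 0.0291 by limma). Signs turned only in values that were not called.

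With the line of origin as a replicate block, Klf4 kept its call in iHAC2-iPS minus iHAC-free (-2.62), and the block changed no other call. Under normexp the second Klf5 probe, which is dim, lost its 3 calls (-0.63, -0.60 and -0.70).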
